A study of Homo sapiens with 3 samples.

Results

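The interferon-induced genes described here are IFITM1, IFITM2, IFITM3, ISG15, IFI6, IFI27, IRF1, IRF9 and BST2. They were found by symbol in GENCODE 29, and the estimated counts of all their transcripts were summed per gene. All 9 were in the tables, among 52989 genes. With a minimum mean of 10 counts over the libraries, 6 of the 9 were measured (IFITM2, IFITM3, ISG15, IFI6, IRF1 and IRF9), among 14081 genes that passed this minimum.

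The RNA came from lysate of the established cell line J82, from a human bladder cancer, after pull-down with a GST fusion protein (GST, glutathione S-transferase, is the affinity tag). The 3 libraries were RNA bound by GST alone, by GST fused to wild-type ZFP36L1, and by GST fused to a ZFP36L1 mutant named Ala in the labels. All 3 groups share the cell line and the tag. The labels name no interferon treatment, do not say which residues of the Ala mutant were replaced, and do not say whether the pull-downs shared 1 lysate. There was 1 library per group, so there is no replicate error, no p-value is given, and every interval below covers counting error only. Each value is a share of its own library, so a ratio between libraries is relative to the other RNAs recovered. The values are of RNA recovered with each protein, and none of the 3 libraries was of lysate before pull-down. RNA per cell, and the share of cells that express a gene, cannot be read from them.

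Interferons are secreted by cells that sense viral nucleic acid. Their receptors signal through JAK kinases and STAT proteins, and IRF9 is the DNA-binding part of ISGF3, the factor that switches on the effector genes. ZFP36L1 is a zinc finger protein that binds AU-rich elements in the 3' untranslated region (3' UTR) of mRNAs, with UAUUUAU as its core site, and recruits the machinery that degrades them.

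The motif that ZFP36L1 is known to bind was searched in the 3' UTR of the coding transcript with the highest mean TPM (an abundance per length). IRF1 was the 1 member of the 9 in which UAUUUAU was found. It held 1 UAUUUAU, in a stretch that is present in both of its abundant coding transcripts, and its longer transcript IRF1-201 held 2 more copies of the shorter motif AUUUA. These stretches are shown because they separate IRF1 from the other members. Each lies in the 3' UTR on the minus strand of GRCh38 and is written 5′ to 3′ with the motif in capitals. The first lies at chr5:132483263-132483292 and is shared by both transcripts. The second, at chr5:132483041-132483070, and the third, at chr5:132481618-132481647, belong to IRF1-201 alone.
IRF1 UAUUUAU site: gccuuugcauuUAUUUAUacagugccuugc
IRF1 first AUUUA of IRF1-201 alone: uuuuagagagaaAUUUAacuuguagaugau
IRF1 second AUUUA of IRF1-201 alone: acuuuuaauugcAUUUAauaaacuguaugu

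No UAUUUAU, UUAUUUAUU or AUUUA was in the 3' UTRs of IFITM1 (159 bases), IFITM2 (230 bases), IFITM3 (169 bases), ISG15 (62 bases), IFI6 (320 bases) or BST2 (403 bases). These 3' UTRs are short beside the median of 964.5 bases over the 11460 tested genes with such a 3' UTR. Of those genes 31.1% held UAUUUAU, 8.25% held UUAUUUAUU and 67.8% held AUUUA. IRF9 and IFI27 had no coding transcript with counts. The longest annotated 3' UTR of IRF9, of 369 bases in IRF9-202, held none of the motifs either.

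The promoters of the members were searched for a motif of interferon-regulated genes. Those of 8 of the 9 were in the RefSeq table (GRCh38.p14, from 250 bases before to 50 after the start), with IFITM2 missing. A pair of GAAA repeats with any 2 bases between them, the core of the interferon-stimulated response element bound by ISGF3 and by IRF proteins, was searched on both strands. It occurred in 6 of the 8 (ISG15, IFI6, IFITM1, IFITM3, IFI27 and BST2) and not in IRF1 or IRF9, against 3.58% of 35097 promoters. The 6 of 8 counts genes, of which IFI27 has 2 promoters, whereas the 3.58% counts single promoters. Since the members were chosen as interferon-induced genes, the high share is not an independent result. The stretches below, written 5′ to 3′ with the match in capitals, each show 1 match in a measured member. ISG15 and IFITM3 hold 2 matches each and IFI6 holds 3, and those shown lie 107, 115 and 35 bases before the start of ISG15, IFI6 and IFITM3. They are ISG15 at chr1:1013380-1013409 (plus strand), IFI6 at chr1:27672288-27672317 (minus) and IFITM3 at chr11:320876-320905 (minus). All 3 are effector genes.
ISG15: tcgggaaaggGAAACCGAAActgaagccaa
IFI6: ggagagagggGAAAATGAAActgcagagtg
IFITM3: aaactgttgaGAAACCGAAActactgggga

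Calls of higher or lower needed a ratio of 2 or more in that direction together with a 95% Clopper-Pearson interval that excluded 1. Between wild-type ZFP36L1 and GST, 4 of the 6 measured members were lower (IFITM2, IFITM3, ISG15 and IFI6) and 0 were higher. Among all 14081 genes 34.2% were lower and 25.5% higher in that comparison. All 6 members had a ratio under 1, and their median log2 ratio was -2.21, against -0.04 for all genes. In the Ala mutant over GST, 2 of the 6 were higher (ISG15 and IFI6) and 0 lower, against 9.01% higher and 5.13% lower among all genes, with a median of 0.43 against 0.04. In wild type over the mutant, the same 4 members were lower and 0 higher, against 36.0% lower and 30.1% higher among all genes, with a median of -3.18 against -0.04. The 3 comparisons share libraries and are not independent of each other.

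**Figure D1:**
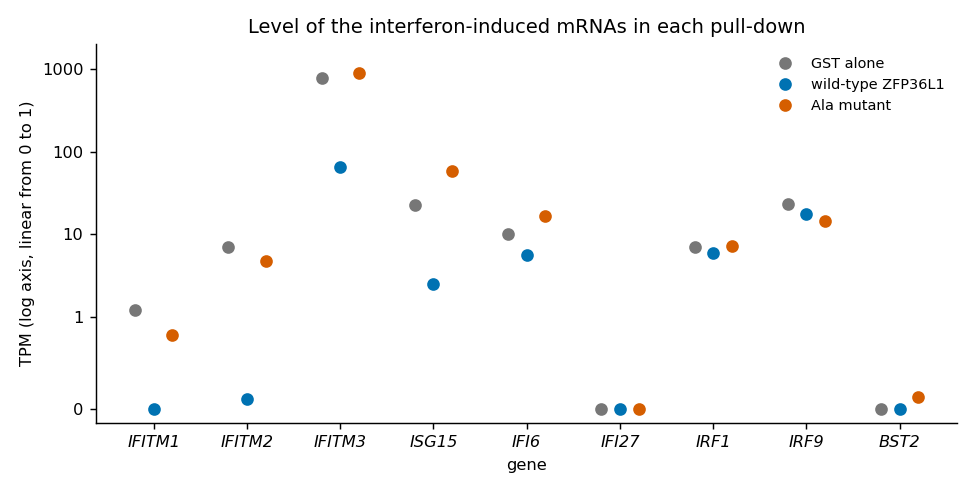
TPM (transcript abundance per length, scaled to a fixed total) of each of the 9 genes in the 3 libraries, with 1 point per library, on a log axis that is linear from 0 to 1. IFITM3 is highest in every library, and the wild-type points of IFITM2, IFITM3 and ISG15 lie far under the other 2, whereas the points of IRF1 and IRF9 lie close together.

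**Figure D2:**
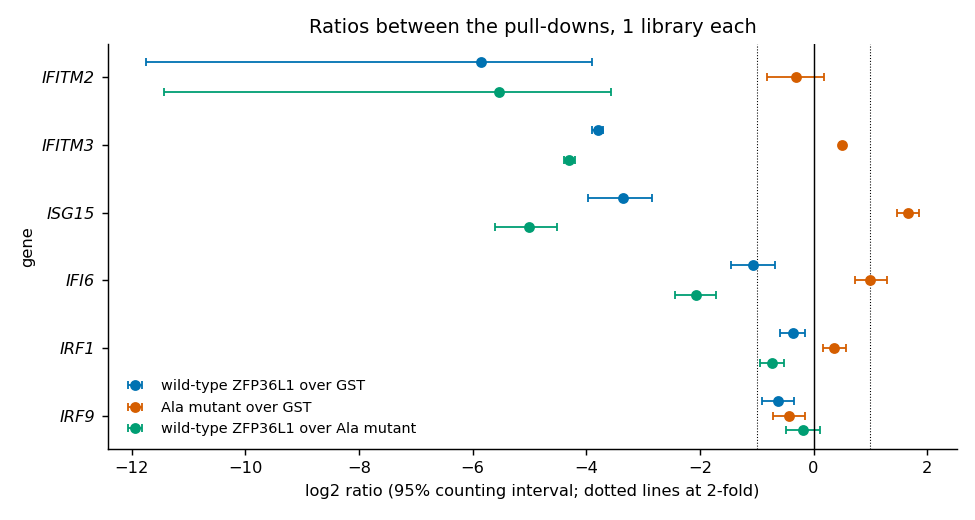
Log2 ratios of the 6 measured members in the 3 comparisons, with points for the ratio, bars for the 95% counting interval and dotted lines at 2-fold. The wild-type ratios of IFITM2, IFITM3 and ISG15 lie beyond the 2-fold line with their whole intervals, and no ratio of IRF1 or IRF9 reaches it.

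IFITM3 (ENSG00000142089.15, chr11:319669-327537, minus strand) encodes a membrane protein that blocks viral entry at endosomes. It was by far the most abundant member, at 778 TPM (an abundance per length) with GST, 64.4 with wild-type ZFP36L1 and 904 with the mutant. This put it at the 98.6th percentile of all genes with GST, the 90.5th with wild type and the 98.8th with the mutant. The counts were 12023, 913 and 15385. The wild-type library was the low one, 13.9-fold under GST (log2 -3.80, interval -3.90 to -3.70) and 19.7-fold under the mutant (log2 -4.30, interval -4.40 to -4.20). The mutant was 1.41-fold over GST (log2 0.50, interval 0.46 to 0.53), short of a call. At least 99.8% of the counts in each library were assigned to 1 coding transcript, IFITM3-201 of 808 bases.

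IFITM2 (ENSG00000185201.16, chr11:307631-315272, plus strand), a close relative with a similar role, had 81 counts with GST, 1 with wild-type ZFP36L1 and 59 with the mutant. Only the wild-type library was nearly empty of it. The log2 ratio of wild type over GST was -5.85, and with a single count its interval ran from -11.74 to -3.90. Against the mutant it was -5.53 (interval -11.43 to -3.57), and the mutant over GST was not called (log2 -0.31, interval -0.83 to 0.18). IFITM2 was the measured member with the fewest counts, at a mean of 47.0.

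IFITM1 (ENSG00000185885.15, chr11:313506-315272, plus strand), which acts at the plasma membrane, was just under the minimum count, with 17, 0 and 12 counts and a mean of 9.67. It counts as not measured. The 3 IFITM genes are neighbours that share part of their sequence. Of the 31-base stretches in IFITM3-201, 17.5% also occur in IFITM1 and 15.7% in IFITM2, and 47.6% of those in IFITM1-204 occur in IFITM2, so the split of reads between the genes is uncertain. IFITM3 took nearly all IFITM counts in every library, and with the 3 genes summed the log2 ratio of wild type over GST was -3.81.

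ISG15 (ENSG00000187608.9, chr1:1001138-1014540, plus strand) encodes a ubiquitin-like protein that is attached to other proteins. It had 295 counts with GST, 30 with wild-type ZFP36L1 and 844 with the mutant, or 22.6, 2.50 and 58.5 TPM. It was low in the wild-type library and, alone with IFI6, called higher in the mutant than in GST. Wild type was 10.3-fold under GST (log2 -3.36, interval -3.97 to -2.84). The mutant was 3.15-fold over GST (log2 1.66, interval 1.46 to 1.85), at the 97.7th percentile of all genes. Between the pull-downs with the 2 forms of ZFP36L1 the ratio was 32.3-fold (log2 -5.01, interval -5.61 to -4.51), the 2.14th percentile. The 1 transcript of ISG15 in the tables shares no 31-base stretch with another gene, so these reads are not split with a relative.

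IFI6 (ENSG00000126709.14, chr1:27666061-27672218, minus strand), whose product is an antiviral membrane protein, had 166, 84 and 302 counts with GST, wild type and mutant. The order of the libraries was that of ISG15, with smaller steps. Wild type was 2.09-fold under GST (log2 -1.06, interval -1.46 to -0.68), at the 34.2nd percentile of all genes and thus near the share of genes that were called lower. The mutant over GST stood at the 2-fold threshold itself (interval of the log2 ratio 0.73 to 1.29), and this call was lost with scaling to total counts (log2 0.86). Wild type was 4.18-fold under the mutant (log2 -2.06, interval -2.44 to -1.72). Most of its counts were in IFI6-202, with 136, 84.0 and 287 estimated counts, and the wild-type library had none of the second transcript IFI6-203 (25.7, 0 and 15.3).

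IFI27 and BST2 were not measured. IFI27 (ENSG00000165949.12, chr14:94104836-94116698, plus strand), a mitochondrial protein, was listed at 0 in all 3 libraries. The tables hold 3 of its 15 GENCODE 29 transcripts, of which 1 is coding, so a 0 here says little about the gene. BST2 (ENSG00000130303.12, chr19:17402939-17405648, minus strand), or tetherin, which holds budding virus at the cell surface, had 3 counts with the mutant and 0 in the other libraries. At this depth no ratio could be given for either.

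IRF1 (ENSG00000125347.13, chr5:132481609-132490798, minus strand) is a transcription factor induced early by interferon gamma, and the member whose UAUUUAU site is printed above. It had 389 counts with GST, 319 with wild-type ZFP36L1 and 454 with the mutant, or 6.99, 5.89 and 7.16 TPM. The 3 libraries were alike to within 2-fold, and no comparison was called. The log2 ratio was -0.37 (interval -0.59 to -0.15) for wild type over GST, 0.36 (0.16 to 0.56) for mutant over GST and -0.73 (-0.94 to -0.52) for wild type over mutant. For comparison, the 3559 tested genes with UAUUUAU had a median log2 ratio of wild type over GST of 0.94, and 47.3% of them were called higher. IRF1 was therefore a site-bearing mRNA that, like many others, was not called higher with wild-type ZFP36L1. These values, with the median of 0.94, are those before the fit on GC content and length described below. With that fit removed IRF1 was at 0.85 in wild type over GST and 0.77 in wild type over mutant, both short of 2-fold.

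The counts of IRF1 fell mainly on 2 coding transcripts that differ in 3' UTR length. IRF1-201, with a 3' UTR of 2342 bases, had 132, 131 and 163 estimated counts with GST, wild type and mutant, and a log2 ratio of wild type over GST of -0.09 (interval -0.45 to 0.27). IRF1-202, with 865 bases, had 246, 171 and 265, and a ratio of -0.61 (interval -0.90 to -0.32). The longer form thus took 33.9% of the IRF1 counts with GST, 41.2% with wild type and 35.9% with the mutant. Of the 31-base stretches of IRF1-201, 12.9% also occur in other genes, against 0% for IRF1-202, so the counts of the longer form are less certain. The intervals of the 2 transcripts overlap, and the difference between them was not tested. IRF1-208, a retained-intron transcript, had 11.6, 16.7 and 26.0 estimated counts.

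IRF9 (ENSG00000213928.8, chr14:24161053-24166565, plus strand) is the DNA-binding subunit of ISGF3. It was assigned 272 counts with GST, 187 with wild type and 183 with the mutant, and none of its comparisons was called. The log2 ratio was -0.62 (interval -0.90 to -0.35) for wild type over GST, -0.43 (-0.71 to -0.16) for mutant over GST and -0.19 (-0.49 to 0.11) for wild type over mutant. Unlike ISG15 and IFI6, it was highest with GST. These counts do not stand for IRF9 mRNA as such. Of them 96.4%, 97.3% and 95.1% were on IRF9-208, a 648-base transcript with a retained intron, and every coding transcript of IRF9 was at 0.

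The coding transcripts of IRF9 share their sequence with AL136295.5, a protein-coding readthrough gene annotated on the same strand. All 31-base stretches of IRF9-202 (100%) and 86.1% of those of IRF9-208 occur in it. AL136295.5 had 130, 34 and 155 counts, which is low in the wild-type library, whereas IRF9 was not. With the 2 genes added together, an alternative chosen after seeing the data, the log2 ratio was -0.94 for wild type over GST, -0.11 for mutant over GST and -0.83 for wild type over mutant, again short of 2-fold.

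**Figure D3:**
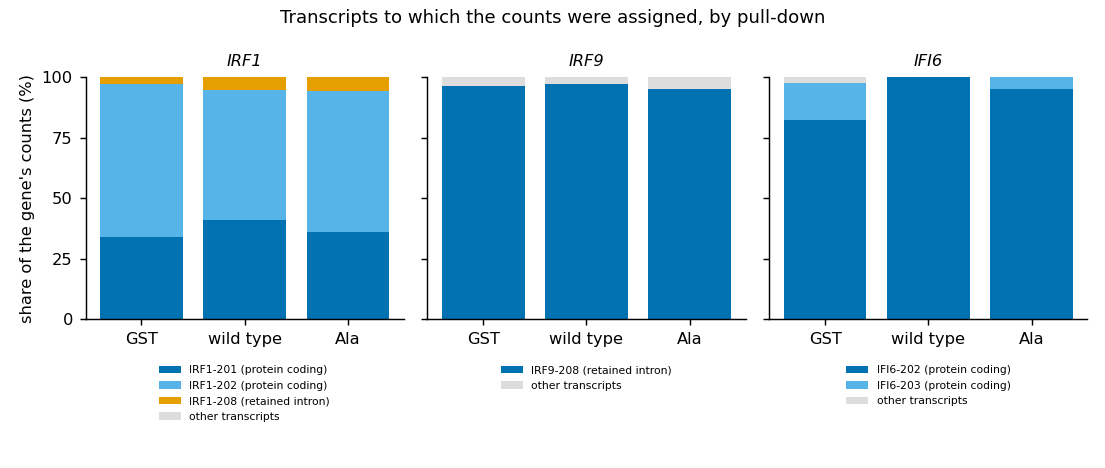
Share of the counts of IRF1, IRF9 and IFI6 assigned to each transcript with a mean of at least 10 estimated counts, in percent, with 1 bar per library. IRF1 is split between 2 coding transcripts in every library, IRF9 rests on the retained-intron transcript IRF9-208 (at least 95.1%), and IFI6 has all of its wild-type counts on IFI6-202.

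Per length, IFITM3 led in all 3 libraries, but the members behind it changed places. With GST the order of TPM was IRF9 (23.4), ISG15 (22.6), IFI6 (10.2), IFITM2 (7.07) and IRF1 (6.99). With wild-type ZFP36L1 it was IRF9 (17.7), IRF1 (5.89), IFI6 (5.63), ISG15 (2.50) and IFITM2 (0.111). With the mutant it was ISG15 (58.5), IFI6 (16.8), IRF9 (14.4), IRF1 (7.16) and IFITM2 (4.71). ISG15 moved from the 77.8th percentile of all genes with GST to the 39.2nd with wild type and the 88.8th with the mutant. IRF1 stayed between the 55.5th and the 60.2nd. Neighbours such as IRF9 and ISG15 with GST, or IRF1 and IFI6 with wild type, differ by little, and without replicates their order is a description only. The TPM of IRF9 rests on its retained-intron transcript, so its place is not that of IRF9 mRNA.

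The 4 members that were lower with the wild-type protein were all above the median GC content. The GC content of the most abundant transcript was 64.7% in ISG15 (96.9th percentile of all genes), 56.9% in IFITM3, 56.8% in IFITM2 and 56.1% in IFI6, against a median of 48.0% over all genes. IRF1-202 had 55.4% and IRF9-208 46.5%. The members' median length was 760 bases against 1938. Over all genes, the ratio of wild type over GST was lower at high GC content. With a cubic fit on GC content and log2 length removed, IFITM2 (log2 -3.90) and IFITM3 (-1.90) stayed past 2-fold in wild type over GST, whereas ISG15 was at -0.50 and IFI6 at 0.70, which ends the first call and turns the direction of the second. IRF1 was then at 0.85 and IRF9 at -0.22. In mutant over GST, neither ISG15 (0.79) nor IFI6 (0.55) passed after the fit. In wild type over mutant ISG15 was still past 2-fold (-1.25), and IFI6 was at 0.19.

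**Figure D4:**
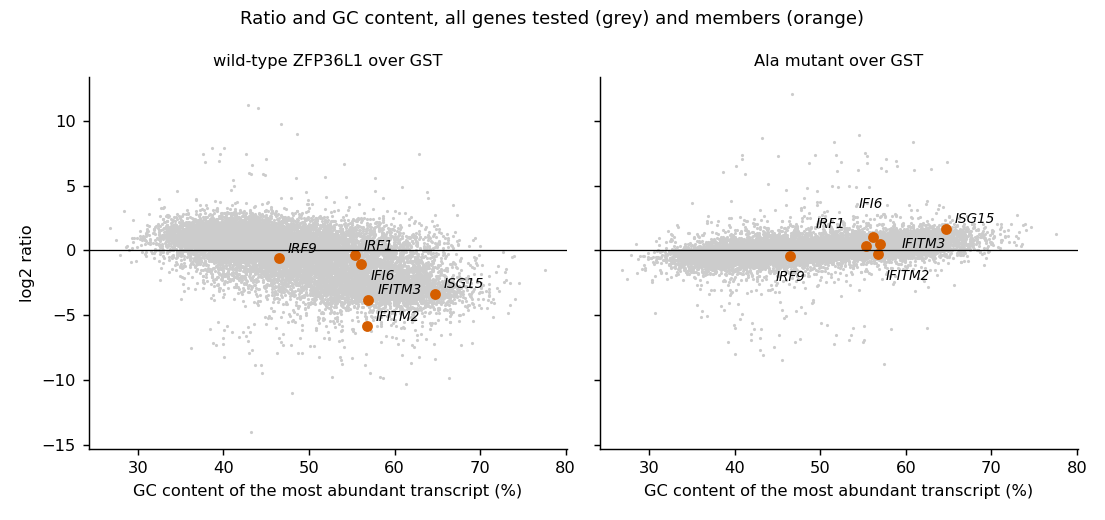
Log2 ratio against the GC content (%) of the most abundant transcript, for wild-type ZFP36L1 over GST (left) and the Ala mutant over GST (right), with grey points for the 14081 tested genes and orange points for the 6 measured members. On the left the grey cloud declines with GC content, ISG15 and IFI6 lie within it, IFITM3 lies toward its lower edge and IFITM2 below most of it.

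For each measured member, the protein-coding gene with the nearest pair of ratios (wild type over GST, mutant over GST) was sought among 9145 genes with a mean of at least 100 counts. Nearest to IFITM3 was KIF22, a kinesin, with 2118, 161 and 2704 counts at a distance of 0.0059 log2 units. OGFOD2 (172, 18 and 473 counts) was nearest to ISG15 at 0.080. BLOC1S1-RDH5 was nearest to IFI6 (0.035), TK2 to IRF1 (0.019) and SAR1A to IRF9 (0.018). IFITM2 had no gene as close, with RBM42 at 0.53. With 9145 genes searched on 2 ratios, a close match is likely for most genes, so it marks nothing particular to the members. The larger distance of IFITM2 comes with a ratio that rests on 1 wild-type count. Its mean of 47.0 counts was also under the minimum set for the genes searched.

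Other genes of the pathway were taken from 8 lists of 123 genes, of which 95 were measured. Of these, 40 were lower and 21 higher with wild type than with GST, with a median log2 ratio of -0.20, where 34.2% of all genes were lower and 25.5% higher. In mutant over GST 11 were higher and 5 lower, against 9.01% and 5.13% of all genes. In wild type over mutant 28 were higher and 41 lower, against 30.1% and 36.0%. The 22 with UAUUUAU in the 3' UTR had a median of 1.02 in wild type over GST, with 12 higher and 3 lower. The 73 without it had a median of -1.19, with 9 higher and 37 lower. These shares were 54.5% higher and 13.6% lower with the site, against 47.3% and 8.65% among all genes with it, and 12.3% and 50.7% without it, against 17.8% and 45.2% among all genes without it. Among pathway genes as among all genes, those with the site were more often higher and those without it more often lower. These ratios and calls are those before the GC and length fit. After it, among pathway genes with the site, USP18 (2.05) and MYD88 (2.25) were past 2-fold, but EIF2AK2 (0.80) and CGAS (0.38) were not. The part of GC content and length in this contrast was not tested.

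**Figure D5:**
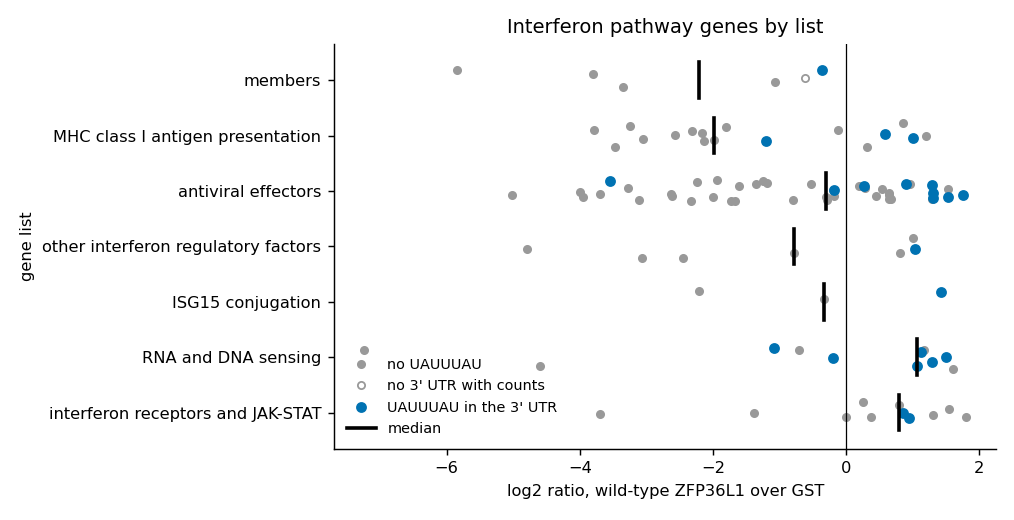
Log2 ratio of wild-type ZFP36L1 over GST for the measured members and the measured genes of 6 pathway lists, with blue points for genes with UAUUUAU in the 3' UTR, grey points for genes without it, an open point for IRF9 and a bar at each median. Most blue points lie right of 0, including those of sensing and receptor genes, while the members and the genes of antigen presentation lie mainly left of it.

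Upstream of the members, none of 9 interferon genes was measured, with 1, 18 and 0 counts summed over the list. The receptors and JAK-STAT genes were all measured (11 of 11), and 3 were higher and 2 lower with wild type over GST. Among all genes 25.5% were higher and 34.2% lower in that comparison, and 9.01% and 5.13% in mutant over GST. IFNGR2, a chain of the interferon gamma receptor, had 2210, 6855 and 2066 counts (log2 1.55), and IFNGR1, the other chain, 169, 628 and 201 (1.81). TYK2, a kinase of the type I receptor, went the other way with 2037, 165 and 2025 counts (-3.70). In the mutant over GST 0 were higher and 1 was lower, JAK2, with 50, 96 and 18 counts (log2 -1.31, and -0.76 after the GC and length fit). Unlike the members, most receptor genes had a ratio of wild type over GST above 1.

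Among genes that sense RNA and DNA, 11 of 14 were measured, with 6 higher and 3 lower in wild type over GST. The shares of all genes there were 25.5% higher and 34.2% lower. MYD88, an adaptor of Toll-like receptors, had 991, 2985 and 839 counts (log2 1.51), and TBK1, the kinase that activates IRF3, had 573, 1855 and 702 (1.61). DDX58, which encodes the RNA sensor RIG-I, had 71, 0 and 131 counts and was lower with wild type than with GST, with an interval of the log2 ratio that reached up to -4.31. Of the other interferon regulatory factors 7 of 10 were measured, with 2 higher and 3 lower. IRF3, which acts before interferon is made, had 1443, 182 and 2971 counts, lower with wild type (log2 -3.07) and higher with the mutant (1.18). IRF7, which amplifies interferon production, had 91, 3 and 219 (-4.79 and 1.40). IRF3 and IRF7 were thus called in the same directions as ISG15 in both comparisons, whereas IRF1 and IRF9 were called in neither. After the GC and length fit IRF3 was at -0.49 and 0.46 and IRF7 at -1.78 and 0.43, so that of these 4 calls only that of IRF7 in wild type over GST was past 2-fold. TBK1 was then at 0.53 in wild type over GST, which ends its call.

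The enzymes that handle ISG15 were 3 measured of 4. UBE2L6, which conjugates ISG15, had 402, 92 and 517 counts (log2 -2.20 in wild type over GST). USP18, which removes it and has UAUUUAU in its 3' UTR, had 376, 1076 and 389 (1.43). HERC5, a ligase for ISG15, had 111, 93 and 89 counts and was not called. ISG15 and its conjugating enzyme were thus lower with wild type and the removing enzyme was higher. After the GC and length fit UBE2L6 was at -0.61, which ends its call as it does that of ISG15, USP18 was at 2.05 and HERC5 at -1.39.

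Of other antiviral effectors 44 of 53 were measured, with 7 higher and 19 lower in wild type over GST and 3 higher and 2 lower in mutant over GST. The shares of all genes were 25.5% higher and 34.2% lower in the first comparison, and 9.01% and 5.13% in the second. EIF2AK2, the double-stranded RNA kinase PKR, was the highest at 1704, 6076 and 1146 counts (log2 1.75). PARP10, an ADP-ribosyltransferase, was the lowest at 168, 5 and 282 (-5.02). ADAR, which edits double-stranded RNA, had 68, 7 and 1516 counts and the highest ratio of mutant over GST in the list (4.61). For antigen presentation by MHC class I, 17 of 18 genes were measured, with 2 higher, 11 lower and a median of -1.98. B2M, the light chain of MHC class I, was among the higher ones at 9095, 22077 and 7641 counts (1.20). Of 4 relatives of the members 2 were measured. IFI27L2 had 539, 74 and 1072 counts and IFI27L1 had 116, 212 and 243. The fit ended the calls in wild type over GST of EIF2AK2 (0.80), B2M (0.75) and IFI27L2 (-0.65).

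The library totals were 19137867 estimated counts with GST, 19845386 with wild type and 19153483 with the mutant. The GST library carries another run code than the other 2, and for comparisons with GST the run and the protein cannot be told apart, while wild type over mutant is within 1 code. Mitochondrial genes took 10.6%, 15.5% and 7.53% of the counts. Of 14 urothelial and epithelial markers 5 were measured, including KRT7, KRT8 and KRT18, and KRT19, KRT5, KRT13, KRT20 and UPK3A were at 0. Their summed counts, 17751, 1381 and 29811, had the same order as ISG15, but EPCAM (11, 55 and 3 counts) went the other way. Those of 5 mesenchymal markers were 42743, 5096 and 29753, of which VIM held 41484, 2581 and 29118. FN1 (573, 1403 and 263) was called higher with wild type than with GST, and ZEB1 (499, 960 and 263) had its most counts there, and the median log2 ratio of the 4 measured markers was 0.23. Leukocyte markers summed to 50, 31 and 54 over 10 genes, with CD3D, CD3E, MS4A1 and NKG7 at 0. The part of these differences in the members' ratios was not tested.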

How the data were processed

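RNA bound in each of 3 pull-downs was sequenced on a BGISEQ-500, per the labels. The submitters' processing notes name kallisto, DESeq2 and hg19. No version and no use of strand is given in the sources used here. The authors deposited estimated counts and TPM per transcript. The members and gene lists were chosen with earlier results of these data known.

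Of 196354 transcripts, 181854 (92.6%) matched GENCODE 29 (GRCh38) by identifier without version. The unmatched held 3.92%, 3.79% and 4.20% of the counts (GST, wild type, mutant) and were left out. Estimated counts were summed per gene and rounded, and genes with a mean of at least 10 were kept. Libraries were scaled with TMM (edgeR 4.0.16; factors 1.03, 1.05 and 0.933), with a prior count of 0.5. Intervals are exact Clopper-Pearson intervals on the split of the counts of 2 libraries. The calculation was tested on simulated counts in which most genes were unchanged, unlike the comparisons with wild type here. That test does not show that the scaling holds for these data.

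Besides all members and their transcripts with a mean of at least 10 counts, each list could give the 2 genes with the most counts and the highest and lowest ratio per comparison. Names outside this rule (the opposite-strand and readthrough genes, cell type markers) were chosen after their values were seen. Promoters are RefSeq's, and a second motif searched in them is not reported here. Alternatives were DESeq2 1.42.0 size factors, 2 forms of total counts, the deposited TPM (pseudocount 0.5, minimum mean 1), no minimum or 100 counts, a prior count of 5, the GC and length fit, coding transcripts only, the most abundant transcript only, and IFITM1 to IFITM3 summed. IRF9 summed with its readthrough gene was added after the data were seen.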

Additional observations from a re-analysis of the deposited data

How the results depend on the processing

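No paired analysis was possible because each group had 1 library, and for the same reason no library could be left out. Of 207 ratios of single members under an alternative, 187 kept their direction and side of the threshold. Some of the 187 could not change. Summing the IFITM genes left the ratios of the other members as they were, and adding the readthrough gene altered IRF9 alone. The calls of IFITM2 and IFITM3 in both comparisons with wild type held under every alternative that measured them. Removing the GC and length fit turned IFI6 to 0.70 in wild type over GST and 0.19 in wild type over mutant. It also left 2 members lower with wild type over GST and 0 higher in mutant over GST, with medians of -0.36 (wild type over GST) and -0.53 (wild type over mutant), and among pathway genes 12 higher and 25 lower in wild type over GST, 5 higher and 1 lower in mutant over GST, and 14 higher in wild type over mutant. The shares of all genes given above hold for the main setting only, and none is given for an alternative. In mutant over GST, 1 member (ISG15) was higher with total counts, with totals that leave out the most abundant genes, with TPM, with no minimum or one of 100 counts, and with a prior count of 5, since IFI6 fell under 2-fold. IFI6 in wild type over GST was short of 2-fold with totals that leave out the most abundant genes (-0.95), TPM (-0.81) and its top transcript alone (-0.93). The pathway genes in mutant over GST were 6 higher and 8 lower with totals that leave out the most abundant genes, 7 higher with TPM, 2 lower with a minimum of 100 counts and 8 lower with the top transcript only. The members' medians moved with which genes were counted: with a minimum of 100 counts they were -1.11 (wild type over GST) and -2.10 (wild type over mutant), with coding transcripts only, which drops IRF9, -3.38 and -4.38, and with the IFITM genes summed -1.06 and -2.06, while TPM gave -2.30 for wild type over mutant. Below 2-fold, IRF9 in wild type over mutant turned to 0.13, 0.29 and 0.37 with totals that leave out the most abundant genes, TPM and the fit. IFITM2 in mutant over GST turned to 0.34 with coding transcripts only. With the fit removed, IRF1 went from -0.37 to 0.85 in wild type over GST. In wild type over mutant it went from -0.73 to 0.77. The median of all genes shifted by -0.21 in mutant over GST and 0.32 in wild type over mutant with totals that leave out the most abundant genes. Where not named, the cause was not tested. Depth limits IFITM1 and BST2 and leaves IFITM2 with 1 count in the wild-type library.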

Other observations

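Genes annotated on the opposite strand overlap IFITM3 and IRF1. AC136475.1, over IFITM3, had 20 counts with GST, 75 with wild-type ZFP36L1 and 15 with the mutant. C5orf56, over IRF1, had 28, 61 and 27. Both counts were highest in the wild-type library, where IFITM3 and IRF1 were lowest. Whether the library preparation kept the strand is not given in the sources used here. Reads from a stretch that lies in transcripts of both genes may therefore not be told apart. Genes on the opposite strand of IFITM2, ISG15 and IFI6 had at most 2 counts in any library.

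The minor transcript IFITM3-203, annotated as a target of nonsense-mediated decay, had 5.91, 0 and 27.3 estimated counts with GST, wild type and mutant. IFI6-202 alone had a log2 ratio of 1.21 in mutant over GST (interval 0.92 to 1.52), above that of IFI6 as a whole.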
